A study of Homo sapiens with 4 samples.

Results

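The subject is a set of 10 transcription factor genes that specify and maintain the B lineage, namely PAX5, EBF1, TCF3, TCF4, IKZF1, IKZF2, IKZF3, LEF1, BACH2 and SPIB, in 4 cell lines of human acute lymphoblastic leukaemia (ALL) of precursor B cells. The genes were taken by name, and each was represented by its probe set with the highest mean. Of the 10, 9 had a probe set with their symbol alone, out of 18377 genes measured in this way, and each of the 9 had 1 such probe set. EBF1 shared its probe set with a second symbol and is described apart. Total RNA was profiled on Affymetrix whole-transcript arrays, 1 array per line, and the values are log2 values that the submitters obtained with RMA. RS4;11 and SEM carry t(4;11), the translocation that joins KMT2A (MLL) to AFF1. They are called the translocation lines. The lines without it, NALM6 and REH, form the comparison group, and NALM6 is known for a DUX4 rearrangement and REH for an ETV6-RUNX1 fusion. All lines were grown in RPMI medium with serum, and the labels name no drug treatment. Each group therefore holds 2 established lines that differ in other lesions as well, and any difference between groups contains those between the lines.

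In the bone marrow, the E protein TCF3 and the factor EBF1 switch on the B-cell programme, and PAX5 then commits the cell to it by activating B-cell genes and silencing those of other lineages. The Ikaros-family zinc finger proteins Ikaros and Aiolos (IKZF1 and IKZF3) govern the passage of pre-B cells out of proliferation, while their relative Helios (IKZF2) is best known in T cells. LEF1 acts with beta-catenin in early B-cell precursors. BACH2 and SPIB act at later checkpoints, and SPIB and TCF4 also direct plasmacytoid dendritic cells. Loss of PAX5, IKZF1 or EBF1 function is a recurrent lesion of this leukaemia.

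The medians of the 4 arrays ran from 6.40 to 6.46 and their 25th percentiles from 4.97 to 5.02, so that values near 5 are dim. Of 8 measured marker genes of B-cell precursors, those above the array median numbered 7 in RS4;11 and 5 in SEM, against 8 in NALM6 and 7 in REH. CD79A, CD79B, CD22 and IGLL1 were above it in every line. MME (CD10) was at 5.54 in RS4;11 and 5.34 in SEM, against 12.48 in NALM6 and 12.56 in REH, and it was the 1 marker that passed the test (limma, difference -7.08, adjusted p = 0.0212). It did not pass without moderation (0.304) or when any 1 line was left out (0.115 to 0.224). CD24 was at 10.51 in RS4;11 and 6.33 in SEM, against 12.49 in NALM6 and 12.19 in REH. Of 10 T and NK cell markers only NKG7 exceeded the array median in any line, and of 8 mature B and plasma cell markers only PRDM1, in NALM6. MPO, CSF1R and LYZ did so among 9 myeloid markers, PF4 among 7 erythroid and megakaryocyte markers, and KRT8, KRT18 and PECAM1 among 10 stromal and epithelial markers. PF4, KRT8 and KRT18 were above the array median in every line, and NKG7 and LYZ in 3 lines each. PF4 (6.587 to 6.675) and KRT8 (6.708 to 6.914) lay close above it, and KRT18 was at 8.39 to 8.504. Levels reached 10.99 for NKG7 in RS4;11, 9.65 for LYZ in NALM6 and 9.51 for PECAM1 in SEM.

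PAX5, LEF1 and TCF3 were present at nearly even levels in the 4 lines. TCF4 and BACH2 were lower in both translocation lines, by 61.1-fold and 7.77-fold between the group means, and their groups did not overlap, as in 42.8% of all genes. IKZF3 stood out in NALM6 alone, BACH2 was lowest in SEM, and SPIB was highest in RS4;11. None of the 9 measured members passed limma's threshold of an adjusted p of 0.05 over all genes, and 1 of them, TCF4, had an unadjusted p below 0.05. Over all genes 4 passed, 0.0218% (0.0109% in each direction), and 9.39% had an unadjusted p under 0.05. In these bulk samples, less RNA per cell and fewer cells that hold the RNA cannot be told apart.

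**Figure D1:**
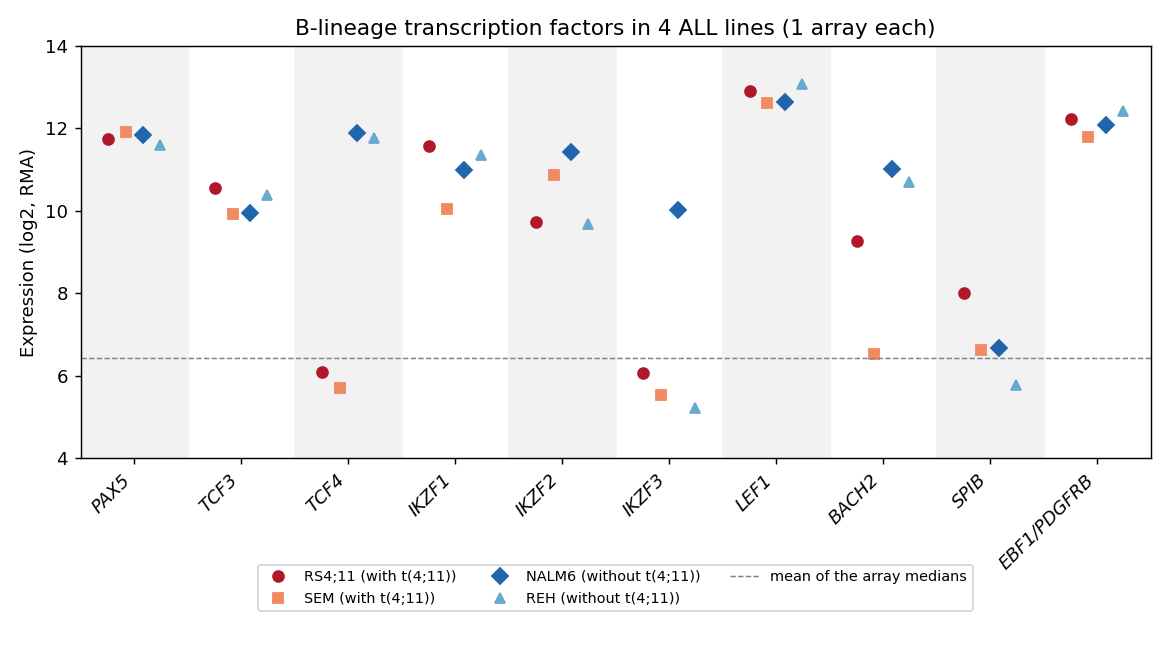
Expression (log2, RMA) of the 9 measured members and of the probe set shared by EBF1 and PDGFRB in RS4;11 and SEM (translocation lines) and in NALM6 and REH (without the translocation). Each point is 1 array, the dashed line is the mean of the 4 array medians, and levels are to be compared within a gene, where TCF4 shows both translocation lines at or below 6.09 and the other lines at or above 11.78.

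PAX5, the commitment factor, was at 11.73 in RS4;11 and 11.90 in SEM, against 11.85 in NALM6 and 11.61 in REH. The translocation lines lay on both sides of NALM6, and the whole span over the 4 lines was 1.23-fold. The group means were 11.82 ± 0.12 in the translocation lines and 11.73 ± 0.17 in the lines without the translocation (SD, n = 2 each), a difference of 0.09 with a 95% interval of -0.33 to 0.51 (limma, adjusted p = 0.862). LEF1, the nuclear partner of beta-catenin, was at 12.92 in RS4;11 and 12.63 in SEM, against 12.64 in NALM6 and 13.08 in REH. Its groups overlapped, with a span of 1.37-fold and a difference of -0.09 (95% interval -0.75 to 0.58, limma adjusted p = 0.924). TCF3, which encodes the E proteins E12 and E47, was at 10.56 in RS4;11 and 9.92 in SEM, against 9.95 in NALM6 and 10.39 in REH. Here the highest and the lowest value belonged to the translocation lines, and the difference was 0.07 (95% interval -0.87 to 1.01, limma adjusted p = 0.957). The 3 intervals reach 0.51, -0.75 and 1.01, so that the lack of a call does not show equal levels. For each of the 3 genes the sign of the difference turned when 1 line was left out: without REH for PAX5 (-0.03), without SEM (0.06) or REH (0.14) for LEF1, and without RS4;11 (-0.25) or NALM6 (-0.15) for TCF3.

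TCF4 encodes another E protein, which binds the same E-box motif as TCF3 and is required for plasmacytoid dendritic cells. It was at 6.09 in RS4;11 and 5.71 in SEM, against 11.89 in NALM6 and 11.78 in REH. Both translocation lines thus lay below the array medians and both others far above them, with a gap of 5.69 between the nearest lines of the 2 groups. The means were 5.90 ± 0.27 in the translocation lines and 11.83 ± 0.08 in the lines without the translocation (SD, n = 2 each). The difference was -5.93 (SE 0.18, 95% interval -6.46 to -5.41), the largest of the 9 members. Its adjusted p in limma was 0.0513 over all genes, just outside the threshold. A second round of quantile normalization gave 0.0496, and removal of dim genes gave 0.0454. TCF4 did not pass in limma with arrays centred on their medians over probe sets (0.0502) or with the mean of probe sets (0.0508). Nor did it with an intensity trend (0.0518) or a robust variance model (0.056), and without moderation its adjusted p was 0.473. Centring each array on its median over genes gave 0.033, and a fit over all probe sets gave 0.045, both settings chosen after the data were seen. When 1 line was left out, the difference lay between -6.13 and -5.74 and the adjusted p between 0.115 and 0.224.

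The other genes of the E-protein circuit were taken from a list of TCF12, the 4 ID genes and 5 related factors, all 10 of which were measured. None passed in either direction, and the median difference was 0.01 over the list and 0.01 over all genes. TCF12, the remaining E-protein gene, was at 12.33 in RS4;11 and 11.78 in SEM, against 11.85 in NALM6 and 11.57 in REH. With TCF3 it showed no separation of the groups by 2-fold, unlike TCF4. ID proteins pair with E proteins and keep them off DNA. ID2 was at 9.85 in SEM, against 7.42 in RS4;11, 7.29 in NALM6 and 7.43 in REH, which puts SEM at least 5.36-fold above each of the others. ID1 was at 7.33 in SEM, against 4.46 in RS4;11, 4.55 in NALM6 and 4.87 in REH, 5.48-fold above the nearest line. Among all genes 0.691% stood 4-fold or more above every other line in SEM. ID3 was at 9.88 in RS4;11 and 10.69 in SEM, against 9.04 in NALM6 and 10.71 in REH, with no such split. CBFA2T3, a corepressor of E-protein complexes, was highest in REH at 8.65, against at most 7.16 in the other lines. A difference of 1 line from the rest has no replicate check here, since each line was measured on 1 array.

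BACH2, a repressor that delays plasma cell differentiation and guards the pre-B checkpoint, was at 9.27 in RS4;11 and 6.52 in SEM, against 11.01 in NALM6 and 10.70 in REH. SEM lay near the array median and 6.74-fold below RS4;11, the next line, while RS4;11 lay 1.43 below REH on the log2 scale. The means were 7.89 ± 1.95 in the translocation lines and 10.85 ± 0.22 in the lines without the translocation (SD, n = 2 each). The difference of -2.96 (95% interval -6.19 to 0.27) did not pass (limma, adjusted p = 0.565). It was -1.58 without SEM and -4.33 without RS4;11.

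Counted without a test, the groups of TCF4 and BACH2 were separated by at least 2-fold, each with the translocation lines lower. That is 2 of 9 members, where 1.84% of all genes were separated in either direction and 0.876% with the translocation lines lower. Without regard to size, the groups did not overlap in the same 2 of 9 members, against 42.8% of all genes. At 4-fold TCF4 alone remained separated, with 0.669% of all genes. With 2 lines per group an exact two-sided permutation test cannot go below 0.333.

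**Figure D2:**
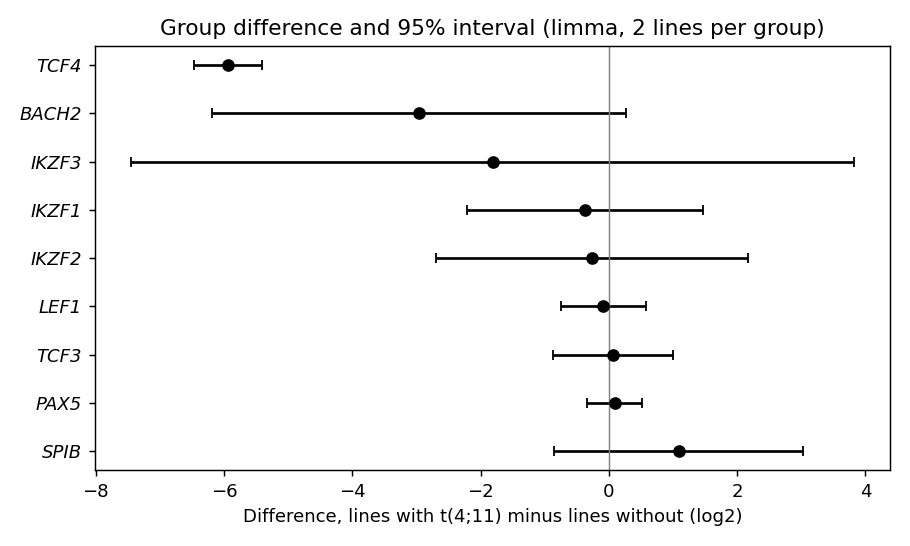
Difference in log2 expression, translocation lines minus the other lines, for the 9 measured members (points) with 95% intervals from limma (2 lines per group). The interval of TCF4 runs from -6.46 to -5.41, and those of the other 8 members include 0.

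Companions of BACH2 were read from a list of 8 genes, 7 of them measured, in which none passed in either direction and the median difference was 0.36. That median was 0.03 without SEM, 0.06 without NALM6 and 0.19 without RS4;11. PRDM1 encodes BLIMP1, the plasma cell factor that BACH2 is known to repress. It was at 4.79 in RS4;11 and 5.12 in SEM, against 7.09 in NALM6 and 5.77 in REH. PRDM1 was highest in NALM6, the line with the highest BACH2, and dim in SEM, the line with the lowest. Whether BACH2 bears on PRDM1 in these lines was not tested. BCL6, a repressor that pre-B cells use under stress, was at 10.99 in RS4;11 and 9.24 in SEM, against 7.32 in NALM6 and 10.76 in REH. MAFG, a small MAF partner of BACH proteins, was at 9.70 in RS4;11 and 9.90 in SEM, against 8.73 in NALM6 and 8.54 in REH, with a difference of 1.16 (SE 0.14, limma adjusted p = 0.256). BACH1, the paralogue, was at 9.75 in RS4;11 and 9.70 in SEM, against 9.22 in NALM6 and 9.33 in REH. For BACH1 and MAFG the translocation lines were the higher ones, the opposite order to BACH2.

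IKZF1, which encodes Ikaros, was at 11.57 in RS4;11 and 10.05 in SEM, against 10.99 in NALM6 and 11.37 in REH. SEM was the lowest line, 1.92-fold below NALM6, and RS4;11 the highest, so that the groups overlapped. The difference was -0.37 (95% interval -2.21 to 1.47, limma adjusted p = 0.873), and 0.39 without SEM. IKZF2, which encodes Helios, was at 9.74 in RS4;11 and 10.86 in SEM, against 11.44 in NALM6 and 9.69 in REH. It split each group, with RS4;11 beside REH at the lower end, and the difference was -0.26 (95% interval -2.69 to 2.17, limma adjusted p = 0.94). IKZF3, which encodes Aiolos, a factor of later pre-B and mature B cells, was at 6.06 in RS4;11 and 5.55 in SEM, against 10.02 in NALM6 and 5.21 in REH. NALM6 was 15.6-fold above the next line and 28.1-fold above REH, while the other 3 lines lay below the array medians. The group difference of -1.81 (95% interval -7.45 to 3.83, limma adjusted p = 0.789) turned to 0.59 without NALM6. Each Ikaros-family member thus had its own order of the lines, with SEM lowest in IKZF1, REH lowest in IKZF2 and IKZF3, and NALM6 highest in IKZF2 and IKZF3. A probe set gives 1 value per gene, so that isoforms of IKZF1, among them those that lack DNA-binding fingers, are not separated.

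IKZF3 and BACH2 were the members that stood at least 4-fold apart from every other line in 1 line, IKZF3 higher in NALM6 and BACH2 lower in SEM. The share of all genes with such a line was 3.4%, with 0.424% for higher in NALM6 and 0.207% for lower in SEM. In a list of 14 measured genes that holds the remaining family members, the NuRD complex and CRBN, none passed, none spanned 4-fold, and differences ran from -0.36 to 0.79 with a median of 0.07. CRBN, the receptor through which lenalidomide directs Ikaros and Aiolos to degradation, was at 9.93 in RS4;11 and 9.84 in SEM, against 9.95 in NALM6 and 10.02 in REH. IKZF5, a distant family member, was at 10.02 in RS4;11 and 9.99 in SEM, against 10.46 in NALM6 and 10.26 in REH. The corepressor gene CTBP2 was at 7.67 in RS4;11 and 7.97 in SEM, against 6.81 in NALM6 and 7.24 in REH. MBD3, a NuRD subunit gene, was at 8.34 in RS4;11 and 8.05 in SEM, against 7.42 in NALM6 and 7.47 in REH (limma adjusted p = 0.366), and the differences of CTBP2 and MBD3 were 0.79 and 0.75.

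SPIB, an ETS-family factor of B cells and plasmacytoid dendritic cells, was at 8.01 in RS4;11 and 6.62 in SEM, against 6.67 in NALM6 and 5.78 in REH. RS4;11 was 2.53-fold above NALM6, SEM and NALM6 were nearly level, and REH was lowest. The difference was 1.09 (95% interval -0.85 to 3.03, limma adjusted p = 0.711), and it was 0.39 without RS4;11. SPI1, which encodes the related factor PU.1, was even, at 9.03 in RS4;11 and 9.0 in SEM, against 8.89 in NALM6 and 9.06 in REH. Both factors bind DNA with IRF4 or IRF8. IRF4 was at 10.93 in RS4;11 and 9.74 in SEM, against 11.49 in NALM6 and 5.67 in REH, which put REH 16.8-fold below the next line (0.479% of all genes were 4-fold or more below every other line in REH). IRF8 was at 8.48 in RS4;11 and 10.09 in SEM, against 5.75 in NALM6 and 8.67 in REH, with NALM6 6.61-fold below the next (0.457% of all genes for NALM6). POU2AF1, the B-cell coactivator OBF1, was at 8.56 in RS4;11 and 6.54 in SEM, against 9.08 in NALM6 and 9.70 in REH. ETS1 had its lowest value in SEM too, at 7.93, against 9.44 in RS4;11, 9.88 in NALM6 and 10.00 in REH. No gene of this list passed (9 of 10 measured), and its median difference was -0.42, or -0.17 without SEM and -0.04 without NALM6.

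LEF1 varied 1.37-fold over the lines. Of 14 genes on the list of TCF/LEF relatives, TLE corepressors and Wnt targets, 13 were measured, none passed, and the median difference was -0.07. A span of 4-fold or more was found in 5 of the 13, TLE1, RNF43, LGR5, TLE3 and TLE4, against 7.56% of all genes. TLE1, a Groucho-type corepressor of LEF1, was at 8.25 in RS4;11 and 8.17 in SEM, against 8.22 in NALM6 and 10.64 in REH. RNF43, a Wnt target that restrains Wnt receptors, was at 4.69 in RS4;11 and 4.71 in SEM, against 4.85 in NALM6 and 9.05 in REH, 18.4-fold above the next line. LGR5, a Wnt target and R-spondin receptor, was at 8.13 in RS4;11 and 7.64 in SEM, against 12.77 in NALM6 and 9.76 in REH. AXIN2, a common readout of beta-catenin activity, was at 6.55 in RS4;11 and 6.72 in SEM, against 7.08 in NALM6 and 7.31 in REH. TLE3 had the other order, at 9.19 in RS4;11 and 8.80 in SEM, against 6.60 in NALM6 and 8.0 in REH. TLE4 split each group, at 9.11 in RS4;11 and 10.35 in SEM, against 11.60 in NALM6 and 8.34 in REH. CTNNB1, the beta-catenin gene, was at 11.68 in RS4;11 and 12.00 in SEM, against 11.77 in NALM6 and 10.93 in REH. AXIN2 and LGR5 were lower in both translocation lines, and the groups did not overlap in 7 of the 13 genes, against 42.8% of all genes. LGR5 also stood apart in NALM6, 8.06-fold above the next line, with 0.424% of all genes 4-fold higher there. Its difference lay between -4.88 and -1.87 when 1 line was left out. RNF43 and TLE1 stood apart in REH, with 0.756% of all genes 4-fold higher there.

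**Figure D3:**
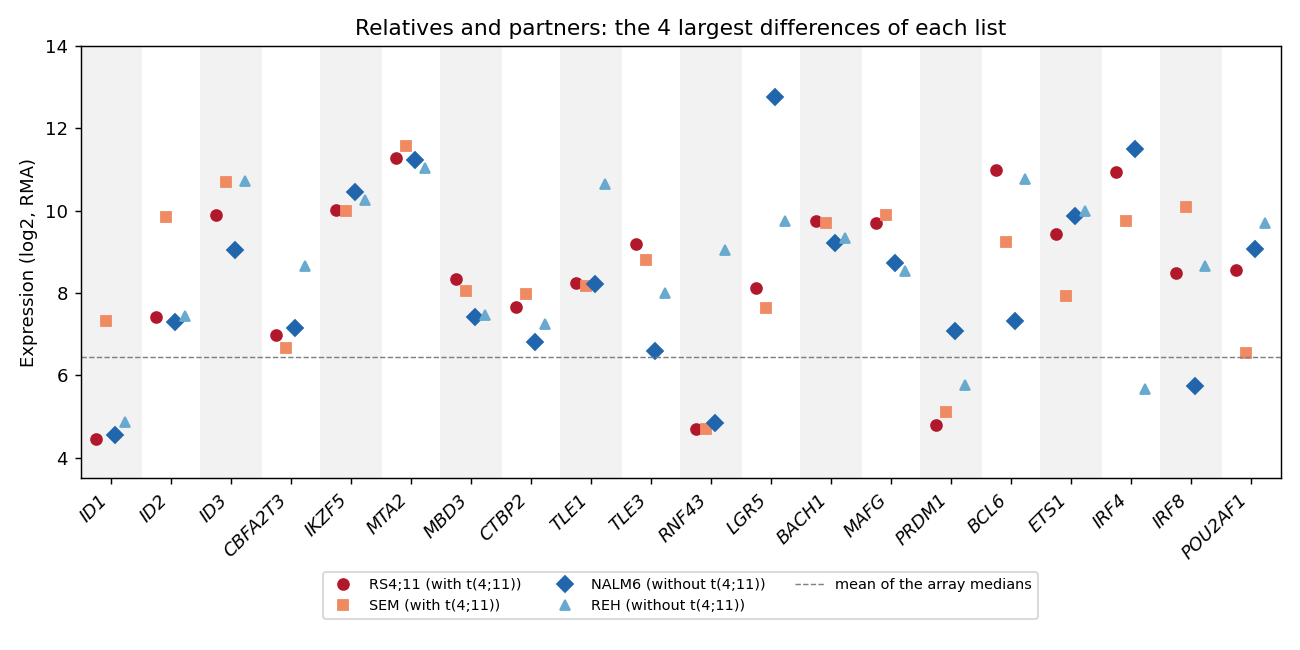
Expression (log2, RMA) in the 4 lines of relatives and partners of the members, from left to right those of E proteins, Ikaros proteins, LEF1, BACH2 and SPIB, with the 4 largest absolute group differences of each list. Each point is 1 array and the dashed line is the mean of the array medians. ID1 and ID2 are highest in SEM, RNF43 and TLE1 in REH and LGR5 in NALM6, while IRF4 is lowest in REH and IRF8 in NALM6.

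EBF1 could not be read on its own. The 1 probe set that lists it also lists PDGFRB, a receptor tyrosine kinase gene that is joined to EBF1 in some cases of ALL. Of the 6 sequence records behind this probe set, 3 are RefSeq transcripts of EBF1 and none is a RefSeq transcript of PDGFRB, and 1 record is shared with the separate probe set of PDGFRB. The shared probe set was at 12.24 in RS4;11 and 11.79 in SEM, against 12.07 in NALM6 and 12.43 in REH. Its span of 0.65 on the log2 scale was about that of TCF3, and its difference was -0.24 (95% interval -0.94 to 0.47, limma adjusted p = 0.798 over all probe sets, a fit added after the data were seen). The probe set of PDGFRB alone had a different profile, at 8.39 in RS4;11 and 9.29 in SEM, against 6.68 in NALM6 and 8.13 in REH. The shared value enters no count of members.

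Of 16 genes known as targets of EBF1, PAX5 or E proteins, 15 were measured. Of these 9 varied at least 4-fold over the lines, as did 4 of the 9 members, against 7.56% of all genes. None passed in either direction, and the median difference was -0.99 against 0.01 over all genes. That median was -0.20 without SEM and -2.06 without RS4;11, a check added after the data were seen. The difference was negative in 11 and positive in 4, and without SEM negative in 9. The groups did not overlap in 10 of the 15, against 42.8% of all genes. They were separated by at least 2-fold in 2, BLNK and DNTT, both with the translocation lines lower, against 0.876% of all genes in that direction. DNTT, the terminal transferase, was at 6.88 in RS4;11 and 5.11 in SEM, against 11.54 in NALM6 and 12.43 in REH (limma adjusted p = 0.279). BLNK, the adaptor below the pre-B receptor, was at 7.15 in RS4;11 and 5.35 in SEM, against 10.66 in NALM6 and 11.74 in REH (limma adjusted p = 0.327).

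SEM was at least 4-fold below every other line in 5 of the 15 targets, namely CD79B, VPREB3, IGLL1, RAG2 and POU2AF1, and RS4;11 in none (0.207% and 0.245% of all genes). RAG2, a recombinase subunit, was at 6.31 in SEM, against 10.94 in RS4;11, 11.86 in NALM6 and 13.43 in REH. VPREB3, a chaperone of the pre-B receptor, was at 7.03 in SEM, against 9.71 in RS4;11, 10.50 in NALM6 and 11.47 in REH. CD79B, a signalling chain of that receptor, was at 7.63 in SEM, against 9.99 in RS4;11, 10.88 in NALM6 and 11.02 in REH, and IGLL1, its surrogate light chain, at 8.66 against 10.78, 10.70 and 10.73 in the same order. In CD79A and CD22 SEM was also the lowest line, but by 1.31-fold and 1.23-fold. VPREB1, the other surrogate light chain gene, was at 11.35 in RS4;11 and 7.57 in SEM, against 10.86 in NALM6 and 5.51 in REH. SEM was also the line with the lowest BACH2, IKZF1, TCF4, TCF3 and LEF1, while IKZF2, IKZF3 and SPIB were lowest in REH. TCF4 was low in both translocation lines (5.71 in SEM and 6.09 in RS4;11). TCF3 and LEF1 were nearly level with NALM6 (9.92 against 9.95 and 12.63 against 12.64). The share of all genes with their lowest value in SEM was not counted. SEM was lowest in the probe set shared by EBF1 and PDGFRB (11.79) and highest in PAX5 (11.90), ID1 and ID2. Whether these levels bear on one another was not tested.

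**Figure D4:**
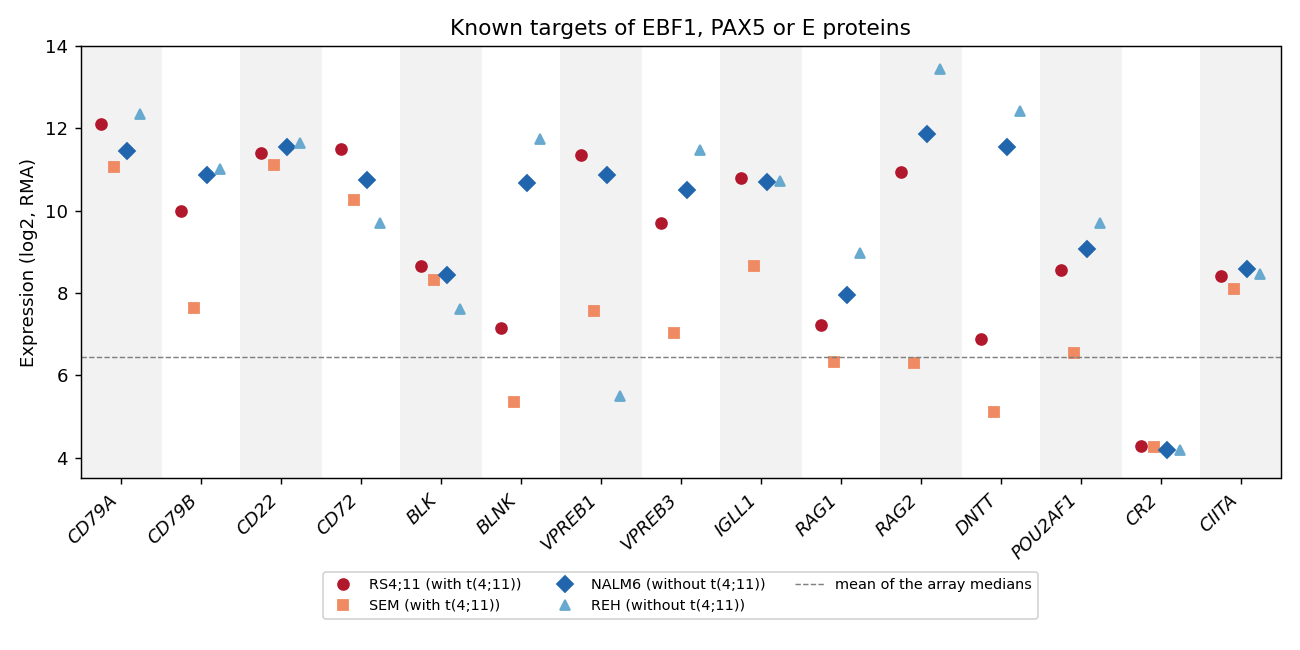
Expression (log2, RMA) in the 4 lines of the 15 measured genes known as targets of EBF1, PAX5 or E proteins. Each point is 1 array and the dashed line is the mean of the array medians. SEM is at least 4-fold below every other line in CD79B, VPREB3, IGLL1, RAG2 and POU2AF1. It is also lowest, by less than 4-fold, in CD79A, CD22, BLNK, DNTT and others shown. Both translocation lines are at least 2-fold below the other lines in BLNK and DNTT. They are also the lower lines, by less than 2-fold, in CD79B, VPREB3, RAG2, POU2AF1, CD22 and others shown.

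Genes that PAX5 is known to repress in mouse B cells were measured for 8 of 9 listed. None passed, with a median difference of -0.06. FLT3, a receptor kinase of progenitors, was at 11.34 in RS4;11 and 12.82 in SEM, against 8.46 in NALM6 and 10.35 in REH, with both translocation lines higher (limma adjusted p = 0.555). CSF1R, the receptor of macrophage growth factor, was at 5.88 in RS4;11 and 7.69 in SEM, against 5.54 in NALM6 and 5.66 in REH. NOTCH1, the receptor of T-cell commitment, was at 8.68 in RS4;11 and 8.77 in SEM, against 5.90 in NALM6 and 8.68 in REH. JCHAIN, the joining chain of secreted antibodies, was at 4.75 in RS4;11 and 4.64 in SEM, against 6.93 in NALM6 and 4.46 in REH. Of the 8 measured genes, 4 varied at least 4-fold over the lines, against 7.56% of all genes. They are the 4 genes above, which were named for the largest differences of the list. The other 4 measured genes varied 1.06-fold to 1.55-fold, and PAX5 itself 1.23-fold.

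Genes of the plasmacytoid dendritic cell programme of TCF4 and SPIB did not share the order of TCF4 in those named here. Of 14 listed, 13 were measured, none passed, and the median difference was 0.20, or -0.03 without REH. RUNX2, a Runt factor of that programme, was at 10.80 in RS4;11 and 11.10 in SEM, against 6.10 in NALM6 and 5.43 in REH (limma adjusted p = 0.0984), the opposite order to TCF4. TCL1A was at 10.59 in RS4;11 and 11.48 in SEM, against 13.42 in NALM6 and 5.98 in REH, and SERPINF1 at 7.93 and 6.74, against 7.86 and 4.54. Both had their lowest value in REH, where TCF4 was high, while TCL1A was highest in NALM6, where TCF4 was high too. IRF8, on the same list, was lowest in NALM6, the other line with high TCF4. Over the whole list the difference was positive in 10 genes and negative in 3, and none of these 3 is among the genes named here. Whether TCF4 or SPIB bears on the levels of these genes was not tested.

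Among 17 other transcription factors of B-lineage cells, all measured, none passed and the median difference was -0.12, or 0.25 without SEM. FOXO1, an activator of the RAG genes, was at 8.76 in RS4;11 and 7.60 in SEM, against 9.24 in NALM6 and 10.10 in REH, with both translocation lines lower (limma adjusted p = 0.582). MEF2C, a MADS-box factor of lymphoid precursors, was at 12.83 in RS4;11 and 12.96 in SEM, against 11.65 in NALM6 and 12.73 in REH. EBF4, a relative of EBF1, was at 5.03 in RS4;11 and 5.06 in SEM, against 4.93 in NALM6 and 6.94 in REH, where alone it exceeded the array median.

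The promoters of 3 of the 4 members that varied 4-fold or more are shown because these are the members whose levels set the lines apart. A RefSeq window was at hand for 9 of the 10 genes, IKZF3 being the exception. Each sequence holds the 250 bases before the annotated start of the gene, from 5′ to 3′ on the gene's strand in GRCh38.p14, and capitals mark E-boxes (CANNTG), the motif that TCF3 and TCF4 bind. TCF4 is known to use many alternative starts, of which the window covers 1.
TCF4, chr18:55635958-55636207, minus strand: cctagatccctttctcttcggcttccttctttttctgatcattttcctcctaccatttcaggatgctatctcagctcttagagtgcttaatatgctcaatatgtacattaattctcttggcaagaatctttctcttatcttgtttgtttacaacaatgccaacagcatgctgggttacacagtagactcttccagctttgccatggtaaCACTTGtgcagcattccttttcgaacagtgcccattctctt
BACH2, chr6:90296844-90297093, minus strand: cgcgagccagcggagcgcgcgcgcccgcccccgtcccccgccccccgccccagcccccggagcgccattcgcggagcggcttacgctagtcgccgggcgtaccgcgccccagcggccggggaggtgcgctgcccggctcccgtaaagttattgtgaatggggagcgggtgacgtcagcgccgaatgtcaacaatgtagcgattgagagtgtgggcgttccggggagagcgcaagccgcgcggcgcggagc
SPIB, chr19:50418688-50418937, plus strand: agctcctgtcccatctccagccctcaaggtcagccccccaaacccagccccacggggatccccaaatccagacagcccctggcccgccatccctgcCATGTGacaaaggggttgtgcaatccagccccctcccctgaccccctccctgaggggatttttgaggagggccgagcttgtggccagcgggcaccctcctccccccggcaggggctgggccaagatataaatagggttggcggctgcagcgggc
The TCF4 window held 1 E-box, the BACH2 window none and the SPIB window 1, and 61.8% of 35116 RefSeq gene windows of the same length held at least 1. IKZF2 had 3, EBF1 had 2, PAX5, IKZF1 and LEF1 had 1 each, and TCF3 had none. The windows also differed in base composition, with 40.8% G and C for TCF4, 73.6% for BACH2 and 66.4% for SPIB. Searched on both strands, with motifs counted separately even where they overlap, a TCF/LEF motif (CTTTGNT) and a BACH-type motif (TGANTCA) were in none of the 9 windows, against 13.2% and 6.57% of all windows. The Ikaros core (TGGGAA) was in 3 of 9, those of EBF1, IKZF1 and LEF1, against 20.8%. The PU-box core (GAGGAA) was also in 3, those of PAX5, TCF4 and LEF1, against 23.6%. A match describes letters in the window and not a bound site.

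For each member that varied at least 4-fold, the genes with the nearest profile over the 4 lines were found among 1379 genes that varied as much, Y-linked genes left out, by Euclidean distance between values centred on each gene's mean. CYBB, a subunit gene of the phagocyte oxidase, lay 0.05 from TCF4, at 5.02 in RS4;11 and 4.66 in SEM, against 10.87 in NALM6 and 10.68 in REH. DTX1, a ubiquitin ligase gene of the Notch pathway, followed at 0.60, and KDM5B, a histone demethylase gene, at 0.80. DTX1 passed the threshold (limma, difference -5.40, adjusted p = 0.0431), and it did not with an intensity trend (0.0518), without moderation (0.368) or when any 1 line was left out (0.115 to 0.224). Nearest to IKZF3 were VNN1 at 0.32, CACNA2D3 at 0.53 and MRAP2 at 0.54, each high in NALM6 alone (9.29, 8.995 and 9.38) and dim in the other lines. Nearest to BACH2 were MCTP2 at 0.39, MFNG, a modifier of Notch receptors, at 0.63 and ATF7IP2 at 0.72. MCTP2 was at 9.36 in RS4;11 and 7.04 in SEM, against 11.26 in NALM6 and 10.72 in REH. Nearest to SPIB were WT1-AS at 0.23, TUBA8 at 0.31 and LRRC2 at 0.38, all highest in RS4;11 and lowest in REH. With 4 arrays such likeness describes these lines only.

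**Figure D5:**
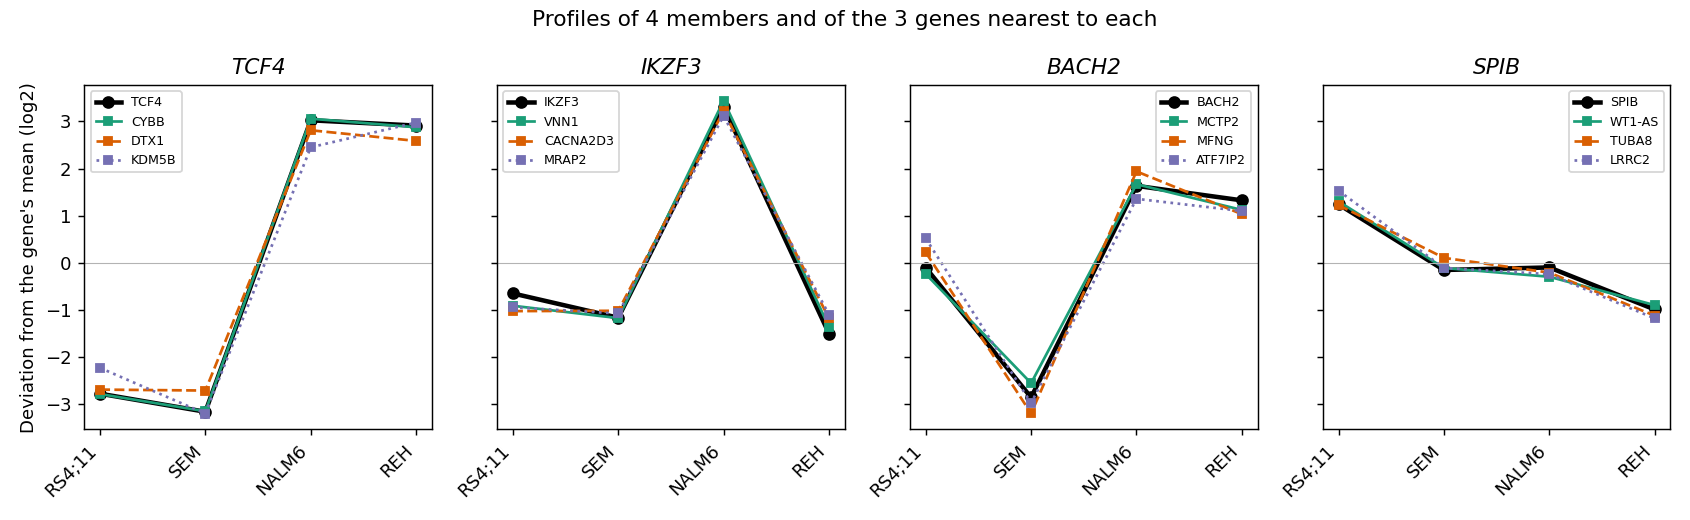
Profiles over the 4 lines (x axis) of TCF4, IKZF3, BACH2 and SPIB (black) and of the 3 genes nearest to each, as deviations of log2 expression from each gene's mean. The lines join arrays of different cell lines and mark no order. CYBB follows TCF4 at a distance of 0.05, and BACH2 and its nearest genes are lowest in SEM.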

How the data were processed

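Total RNA of 4 cell lines was labelled for Affymetrix whole-transcript arrays, per the labels' protocols. The deposited log2 values were made by the authors with RMA and Partek, per the submitters' processing notes. Their versions are not given, and the log2 scale was inferred from the values. RMA's quantile step reduces array-wide differences, and the array medians still ran from 6.40 to 6.46. Of 32968 probe sets, 19310 had 1 gene symbol. The highest-mean one per gene left 18377 genes. RefSeq symbols came from GRCh38.p14.

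The translocation lines (RS4;11, SEM) were set against those without t(4;11) (NALM6, REH) with limma 3.58.1 in R 4.3.3, with no covariate, at an adjusted p of 0.05 (Benjamini-Hochberg over all genes). Limma was tested on simulated data. Differences are translocation lines minus the others. Each line is 1 replicate, and p-values reflect the spread from line to line, which includes culture and array effects. The number of arrays limits precision. Promoter windows are RefSeq's.

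The members and lists were chosen with earlier results of these data known. Named are all members, per list any gene that passed and the 4 largest differences, and the 3 nearest profiles. Y-linked genes and XIST were left out of the nearest profiles after these had been seen. TCF12, CRBN, SPI1, CTNNB1, CD79A, CD79B, CD22, IGLL1, VPREB1, AXIN2, TLE4, NKG7, MME, PDGFRB, CD24, MPO, LYZ, PF4, KRT8, KRT18 and PECAM1 were chosen after their values were seen. Alternatives were another scaling, the mean of probe sets, removal of dim genes, other variance models and leaving out each line.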

Additional observations from a re-analysis of the deposited data

How the results depend on the processing

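The count of 4 genes past limma's threshold (2 higher, 2 lower in the translocation lines) was 9 (4 and 5) after repeated quantile normalization and 17 (12 and 5) without dim genes. It was 28 (19 and 9) with arrays centred on their medians over genes and 12 over all probe sets, both chosen after the data were seen. Without moderation it was 0 in limma (1424 at an unadjusted p under 0.05), and it was 0 when any 1 line was left out (1254 to 2585), where 1 residual degree of freedom remains. The count of members past the threshold was 1, TCF4, instead of 0 after repeated quantile normalization, without dim genes and with arrays centred on their medians over genes, and TCF4 passed over all probe sets too. The members separated between the groups numbered 1 instead of 2 at 4-fold. No paired analysis was possible because each sample is a different cell line and no line is in both groups. Of 69 named genes, SPI1 alone turned its sign under a scaling (-0.009 with centred arrays). When 1 line was left out, the lowest and highest differences had opposite signs for these genes: PAX5 (-0.03 to 0.21), TCF3 (-0.25 to 0.39), LEF1 (-0.31 to 0.14), IKZF1 (-1.13 to 0.39), IKZF2 (-1.13 to 0.62), IKZF3 (-4.22 to 0.59), BCL6 (-0.65 to 2.79), CACNA2D3 (-4.24 to 0.16), CD79A (-0.84 to 0.20), EBF4 (-1.89 to 0.12), ID1 (-0.26 to 2.62), ID3 (-0.42 to 1.25), IGLL1 (-2.06 to 0.069), IRF4 (-1.15 to 4.67), JCHAIN (-2.24 to 0.24), MRAP2 (-4.13 to 0.089), SERPINF1 (-0.53 to 2.80), SPI1 (-0.041 to 0.12), TCL1A (-2.38 to 5.05), TLE4 (-1.87 to 1.39), VNN1 (-4.48 to 0.32) and VPREB1 (-1.40 to 3.95). The median difference of the 9 members was -0.26, and 0.006 without SEM. By construction, the mean of a group then rests on 1 line. The files give no detection call, and the number of arrays limits all values.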
